A study of Mus musculus with 12 samples.

Results

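The genes described here are 10 genes of the endoplasmic reticulum (ER) unfolded protein response, chosen by name: the chaperones Hspa5, Hsp90b1, Pdia4, Sdf2l1 and Dnajb9, the chaperone-like disulfide protein Creld2, the degradation factor Herpud1, the sensors Atf6 and Ern1, and the transcription factor Xbp1. They were chosen with earlier results of these data known. All 10 were found among the 24062 genes of the count tables, and all 10 passed the filter on low counts in every comparison. The data are RNA-seq read counts from 12 mice, 1 library per mouse, in 4 groups of 3. The MYC-ON livers came from FVB males carrying LAP-tTA and TRE-MYC, in which the liver-specific LAP promoter drives tTA and tTA turns on the MYC transgene. MYC was switched on at birth by taking the litters off doxycycline (1 mg/mL in the breeders' water), and all 6 liver mice, controls included, carried the active transgene. The xenografts were HCC53N cells, a single line of mouse liver cancer cells described as lacking p53 and expressing mutant NRAS, implanted subcutaneously in female NOD SCID mice. The sample labels call these cells MYC ON as well, whereas the methods describe the line without a MYC transgene, so what the label means is uncertain. By Western blot, the paper reports more MYC protein in these cells than in wild-type liver. In each model 3 mice received the control diet and 3 a diet without tryptophan (No-Trp), both for 21 days. The paper reports that MYC-ON livers bear tumors, and that the No-Trp diet left them with fewer and smaller tumors and lower MYC expression. The liver mice were control mice 101, 102 and 103 and No-Trp mice 105, 107 and 108, and the xenograft mice were control mice 40, 41 and 43 and No-Trp mice 35, 36 and 37. The labels state an age of 45 days for MYC-ON males compared with wild-type males and no age for the xenograft hosts.

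The ER folds secreted and membrane proteins, a heavy load in hepatocytes, which make most plasma proteins. When unfolded proteins build up, BiP (Hspa5) leaves 3 sensors in the ER membrane. IRE1 (Ern1) splices Xbp1 mRNA and so makes the active XBP1 factor, ATF6 (Atf6) is cut in the Golgi to free its transcription factor domain, and PERK (Eif2ak3) phosphorylates eIF2alpha, which slows translation and favors ATF4. ATF6 and XBP1 raise the genes of chaperones and of ER-associated degradation, partly through the ER stress element (ERSE), a CCAAT box, bound by NF-Y, placed a fixed distance from CCACG. Counts per gene do not separate spliced from unspliced Xbp1 mRNA, cut from uncut ATF6, or phosphorylated from unphosphorylated sensors.

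The sequence before the transcription start is shown for the 4 genes that responded to diet in the livers (Herpud1, Dnajb9, Sdf2l1 and Creld2) and for Hspa5, the best-known target of the response. Sequences and starts are those of RefSeq on GRCm38.p6, position 0 is the annotated start, and each run holds the 250 bases before it. Capitals mark the ERSE (CCAAT, any 9 bases, CCACG) in Hspa5, Hsp90b1 and Creld2, the shorter ERSE-II (ATTGG, any 1 base, CCACG) in Herpud1, and single CCAAT and CCACG letters on either strand in Sdf2l1 and Dnajb9, which held neither element. For Hsp90b1, whose window held 2 ERSE matches, each match is given with 12 bases on either side.
Hspa5 (chr2:34771840-34772089, plus strand): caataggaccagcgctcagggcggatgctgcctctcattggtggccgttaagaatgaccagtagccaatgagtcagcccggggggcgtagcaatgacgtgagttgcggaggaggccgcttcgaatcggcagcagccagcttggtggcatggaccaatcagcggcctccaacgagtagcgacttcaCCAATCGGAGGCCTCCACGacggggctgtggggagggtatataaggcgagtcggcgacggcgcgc
Hsp90b1, far match (chr10:86705626-86705668, minus strand): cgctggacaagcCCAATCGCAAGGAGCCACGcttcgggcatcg
Hsp90b1, near match (chr10:86705521-86705563, minus strand): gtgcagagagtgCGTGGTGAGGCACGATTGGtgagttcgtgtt
Creld2 (chr15:88819396-88819645, plus strand): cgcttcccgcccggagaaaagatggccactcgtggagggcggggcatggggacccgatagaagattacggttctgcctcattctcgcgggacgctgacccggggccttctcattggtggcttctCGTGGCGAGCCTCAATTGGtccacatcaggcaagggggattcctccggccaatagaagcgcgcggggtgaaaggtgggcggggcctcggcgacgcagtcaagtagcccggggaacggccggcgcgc
Herpud1 (chr8:94386179-94386428, plus strand): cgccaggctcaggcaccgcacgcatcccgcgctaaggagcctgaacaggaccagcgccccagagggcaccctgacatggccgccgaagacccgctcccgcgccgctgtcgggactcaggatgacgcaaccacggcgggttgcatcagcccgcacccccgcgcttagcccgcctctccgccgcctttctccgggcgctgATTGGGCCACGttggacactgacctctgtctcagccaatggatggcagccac
Sdf2l1 (chr16:17132384-17132633, minus strand): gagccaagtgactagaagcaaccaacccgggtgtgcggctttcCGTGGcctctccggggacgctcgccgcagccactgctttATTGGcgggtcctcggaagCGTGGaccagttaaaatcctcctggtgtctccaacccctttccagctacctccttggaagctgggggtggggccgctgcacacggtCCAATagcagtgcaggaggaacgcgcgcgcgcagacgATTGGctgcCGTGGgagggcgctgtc
Dnajb9 (chr12:44210069-44210318, minus strand): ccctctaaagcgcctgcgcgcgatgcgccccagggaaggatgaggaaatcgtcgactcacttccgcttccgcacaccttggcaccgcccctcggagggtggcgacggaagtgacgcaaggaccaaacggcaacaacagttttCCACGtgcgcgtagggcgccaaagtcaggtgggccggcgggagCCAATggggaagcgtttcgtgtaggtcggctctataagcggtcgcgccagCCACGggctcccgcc

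Spaced stress elements were found in 4 of the windows, and loose CCAAT or CCACG letters in most of them. Both strands of the windows from 250 bases before to 50 after the start were searched, for 9 of the 10 genes (Atf6 was not matched in the sequence table). The ERSE was found in 3 of the 9, against 39 of 32544 distinct windows of all genes (0.12%). Its match lay at -65 to -47 in Hspa5, at -212 to -194 and, on the opposite strand, -107 to -89 in Hsp90b1, and on the opposite strand at -126 to -108 in Creld2. The ERSE-II was found in Herpud1 alone of the 9, at -52 to -42, and in 12 of all windows (0.0369%). Loose CCAAT letters were in 7 of the 9 windows and in 37.4% of all windows, and loose CCACG letters in 8 of the 9 and in 33% of all. These loose counts include the letters inside ERSE and ERSE-II matches. The XBP1 element TGACGTGG (0.682% of windows) and the ATF4-type element TGATGNAAT (0.956%) were in none of the 9, and CACGTG (7.17%) was in Dnajb9 alone. A match describes letters only, and no binding was measured. The elements were searched because they are known in this response, so the shares are a description and not a test.

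**Figure D1:**
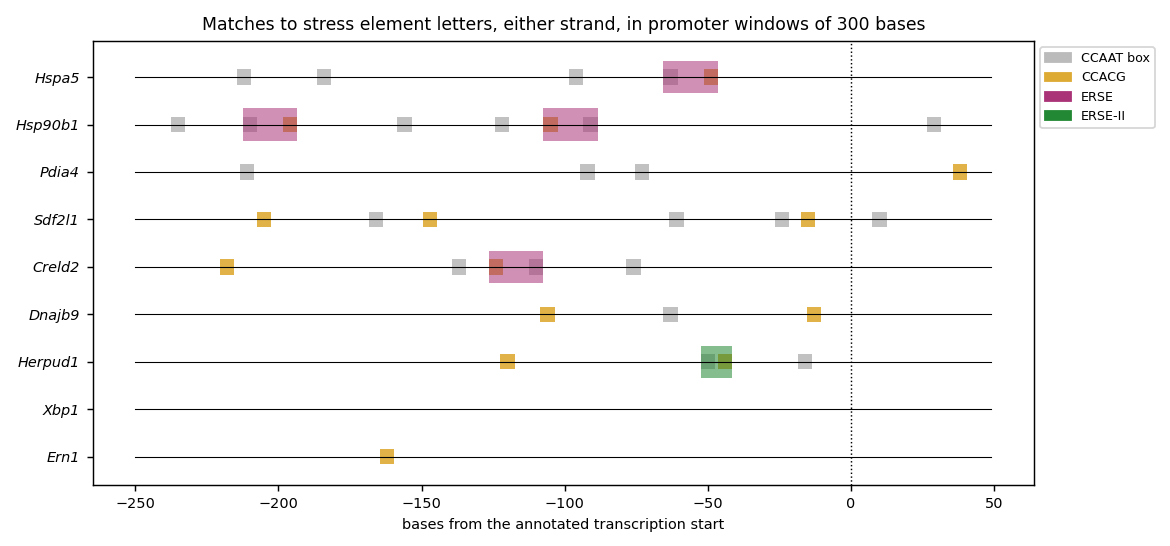
Matches to stress element letters on either strand in the promoter windows of 9 of the 10 genes (rows), by distance in bases from the annotated start (x axis, dotted line at 0). Wide purple blocks are ERSE matches (Hspa5, 2 in Hsp90b1, and Creld2), the green block is the ERSE-II match of Herpud1, and grey and yellow blocks are loose CCAAT and CCACG letters. Xbp1 has no block of any color.

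Counts on genes per library ranged from 14660963 (control xenograft 43) to 26085349 (No-Trp xenograft 36), and the lowest count of any of the 10 genes was 309 (Sdf2l1), for a counting error of 5.69%. Hepatocyte markers were present in all 6 livers, with Alb between 4522 and 88176 CPM (counts on genes scaled by library size), but were low in the xenografts (Alb between 74.8 and 344 CPM). Some libraries stood apart. The ribosomal RNA precursor Rn45s took 12.1% of the counts in control liver 101 and 2.22% in control liver 102, against at most 0.758% in the other 10. Control xenograft 43 had the lowest depth and the largest share of reads left uncounted (39.4%). A mark of resubmission was carried by livers 101 and 108, 1 per diet, and by xenografts 41 and 43, both control, so in the xenografts this mark and the diet overlap in part. The labels do not say whether it stands for a new library or a new sequencing run.

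Per length, in CPM per kilobase of exon, the order of the 10 genes was led by the same chaperone in all 4 groups. Hsp90b1, the ER form of Hsp90, was highest, at 461 ± 34.6 (SD, n = 3) in control livers, 419 ± 67.2 in No-Trp livers, 435 ± 51.8 in control xenografts and 360 ± 18.9 in No-Trp xenografts. Hspa5 followed at 303 ± 40.4, 274 ± 21.9, 249 ± 50.9 and 278 ± 5.93 in the same order, the next gene in every group but the No-Trp livers. There Herpud1 stood between them at 355 ± 128, with a range that overlapped those of both, after 95.4 ± 44.6 in control livers. Pdia4, a protein disulfide isomerase, was at 85.6 ± 15.9 in control livers and did not separate from Herpud1 there. The sensors were at the bottom of the order of means in all 4 groups, although Atf6 overlapped Dnajb9, the gene above it, in both xenograft groups. Atf6 lay between 11 and 16.3, and Ern1 between 3.09 and 8.03, apart from each other in every group. In control livers the neighbors Creld2, Xbp1 and Sdf2l1, at 60.3, 57.5 and 49.7, overlapped in turn, and in the control xenografts every neighboring pair from Xbp1 down to Atf6 overlapped. The order depends on the exon lengths used, 3754 bases for Hspa5 and 2825 for Hsp90b1, and other transcript lengths were not tried. In mean CPM, without length, Hsp90b1 was below Hspa5 in the No-Trp xenografts (1016 against 1043) and above it in the other groups.

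In the livers, removal of tryptophan from the diet moved 4 of the 10 genes, 2 in each direction, while the ranges of the abundant chaperones overlapped between diets. Herpud1 and Dnajb9 rose and Sdf2l1 and Creld2 fell. Of all 14122 genes tested there, 13.3% were called higher and 12% lower at an adjusted p of at most 0.05 (edgeR's quasi-likelihood test, Benjamini-Hochberg adjustment over all genes, used for every adjusted p below). Together 25.3% of all genes were called in one direction or the other, so 4 of 10 is a share near that background and not a result about the set. The median log2 fold change of the 10 was 0.17 against -0.0031 over all genes. In bulk tissue, fewer cells of a type and less RNA per cell cannot be told apart. The part of the tumor burden, which the paper reports to differ between these diets, was not tested.

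Herpud1, which recruits ubiquitin ligases of ER-associated degradation, was the gene with the largest change. Control livers 101, 102 and 103 had 98.7, 273 and 187 CPM, and No-Trp livers 105, 107 and 108 had 589, 978 and 510 CPM. Every No-Trp liver was above every control liver, with control 101 lowest and No-Trp 107 highest. The fitted change was 3.77-fold (log2 fold change 1.91, SE 0.43, adjusted p = 0.0253). Dnajb9 (ERdj4), a co-chaperone that binds IRE1 and BiP, had 34.8, 53.9 and 32.9 CPM in control livers and 88.0, 160 and 58.8 CPM in No-Trp livers. These groups did not overlap either, although No-Trp liver 108 was close to control liver 102. Its log2 fold change was 1.36 (SE 0.39, adjusted p = 0.0423), or 2.56-fold.

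Sdf2l1, an ER protein found in complexes with BiP and its co-chaperones, fell to less than any control value. It had 59.5, 62.7 and 43.0 CPM in control livers and 24.9, 21.7 and 24.0 CPM in No-Trp livers, a 2.31-fold decrease (log2 fold change -1.21, SE 0.19, adjusted p = 0.0163). The 3 No-Trp livers were close to each other, with a mean of 23.5 ± 1.64 CPM (SD, n = 3). Creld2, an ER-resident protein with disulfide isomerase activity, had 73.4, 102 and 71.5 CPM in control livers and 45.4, 37.0 and 49.8 CPM in No-Trp livers, a 1.85-fold decrease (log2 fold change -0.89, SE 0.20, adjusted p = 0.0250). Its groups did not overlap. With a log2 fold change of at least 1 required as well, Creld2 dropped out, and 9.28% of all genes were higher and 7.27% lower by that rule. Among all genes, 23.6% had groups apart with No-Trp higher and 25% with No-Trp lower, and among the 10 genes these were 4 and 2.

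The sensors Atf6 and Ern1 and the transcription factor Xbp1 did not pass the threshold in the livers, and all 3 had positive fold changes. Atf6 had 76.8, 75.5 and 86.3 CPM in control livers and 97.4, 135 and 109 CPM in No-Trp livers, so the groups were apart (log2 fold change 0.53, SE 0.17, adjusted p = 0.0577). Xbp1 was apart as well, at 126, 146 and 141 CPM against 170, 222 and 168 CPM (log2 fold change 0.46, SE 0.17, adjusted p = 0.0881). Ern1 overlapped between diets, at 21.3, 52.8 and 46.6 CPM against 54.1, 94.5 and 48.0 CPM, and control liver 101 accounted for the low end (log2 fold change 0.72, SE 0.39, adjusted p = 0.206). For Ern1 the 95% interval of the log2 fold change ran from -0.20 to 1.65.

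The 3 abundant folding factors overlapped between diets in the livers. Hspa5 had 1074, 1311 and 1028 CPM in control livers and 1028, 1114 and 949 CPM in No-Trp livers (log2 fold change -0.13, 95% interval -0.64 to 0.39, adjusted p = 0.696). Hsp90b1 had 1378, 1340 and 1192 CPM against 1153, 1387 and 1011 CPM (log2 fold change -0.12, 95% interval -0.67 to 0.43, adjusted p = 0.723). Pdia4 had 187, 249 and 180 CPM against 187, 204 and 173 CPM (log2 fold change -0.11, 95% interval -0.54 to 0.32, adjusted p = 0.676). These intervals leave out changes of the size fitted for Herpud1 or Sdf2l1, and they do not show that the levels were equal. An exon of Hsp90b1 overlaps the pseudogene 1810014B01Rik on the opposite strand, and whether the counting used strand is not given in the sources used here.

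**Figure D2:**
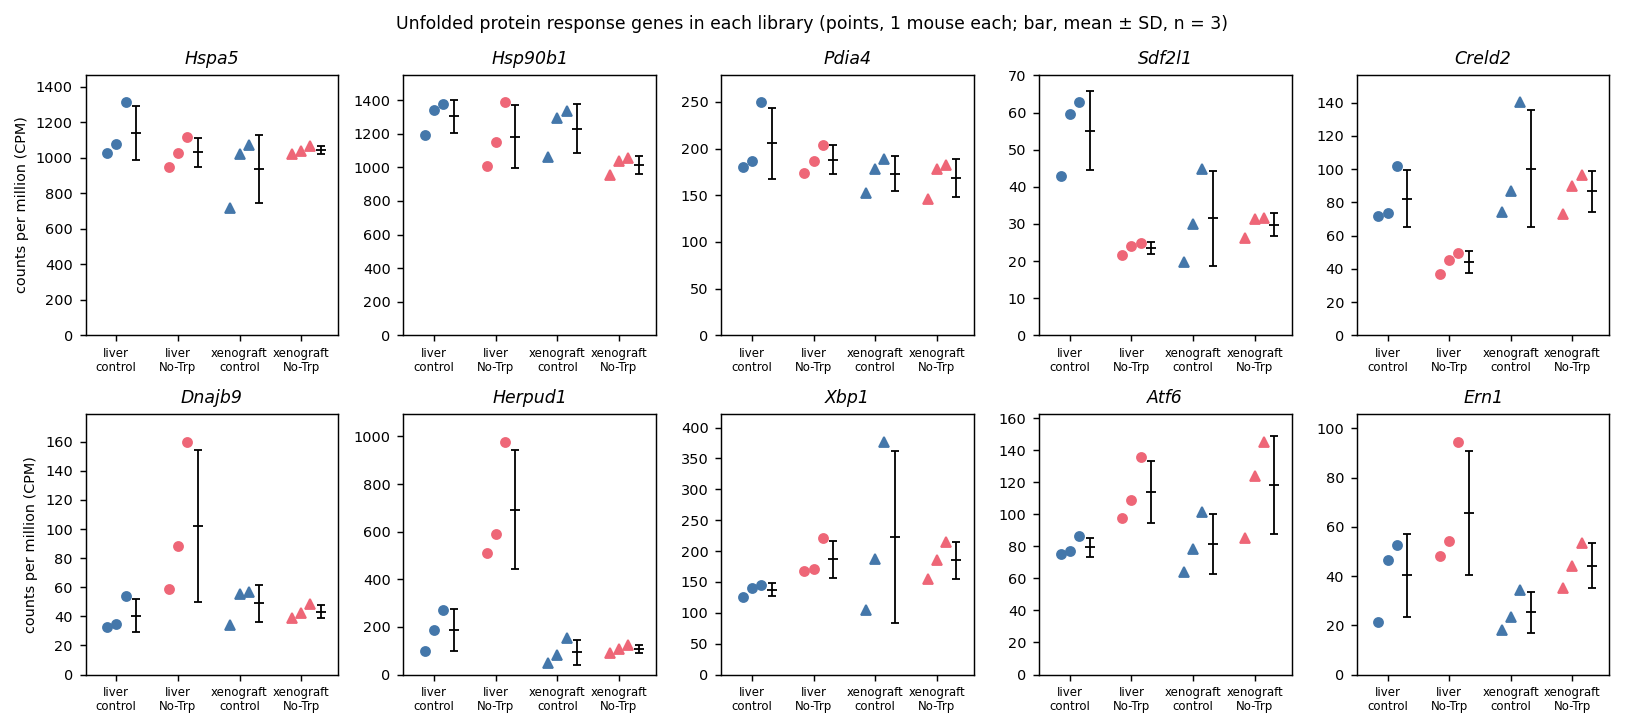
CPM of the 10 genes (1 panel each, y axis from 0) in the 4 groups (x axis), with 1 point per mouse ordered by value, circles for livers and triangles for xenografts, blue for control and red for No-Trp, and a bar for the mean ± SD (n = 3). Herpud1 and Dnajb9 stand higher and Sdf2l1 and Creld2 lower in the No-Trp livers with no overlap, Hspa5, Hsp90b1 and Pdia4 overlap between liver diets, and in the xenografts the diets overlap for every gene but Ern1 and Hsp90b1.

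The 4 liver calls were sensitive to which mice were included, while their directions were not. Herpud1 ranged from 1.57 to 2.27 on the log2 scale with 1 liver left out at a time, Dnajb9 from 0.86 to 1.64, Sdf2l1 from -1.37 to -1.12 and Creld2 from -0.99 to -0.72. Without control liver 101, control liver 103 or No-Trp liver 105, none of the 4 had an adjusted p of at most 0.05, and without No-Trp liver 107 Sdf2l1 alone did. Without control liver 102 or No-Trp liver 108 all 4 did. The calls over all genes moved in the same runs: 1874 genes were higher and 1696 lower with all 6 livers, 181 and 118 without 101, 7 and 1 without 103, and 300 and 70 without 105. Without 107 they were 875 and 989. With only the 4 livers without the resubmission mark, no gene at all was called in either direction (adjusted p of 0.0976 for Dnajb9 and 0.0923 for each of the other 3), and the log2 fold changes were 1.77 for Herpud1, 1.52 for Dnajb9, -1.18 for Sdf2l1 and -1.08 for Creld2. Between the 2 marked livers, 108 over 101, the log2 differences were 2.37, 0.76, -1.30 and -0.56 in the same order of genes. Scaling by library totals moved the median of all genes to -0.30 and the calls to 888 higher and 1983 lower. On that scale Herpud1 was at 1.56, Sdf2l1 at -1.48 and Creld2 at -1.16, all with an adjusted p of at most 0.05, and Dnajb9 at 1.00 had an adjusted p of 0.0536.

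**Figure D3:**
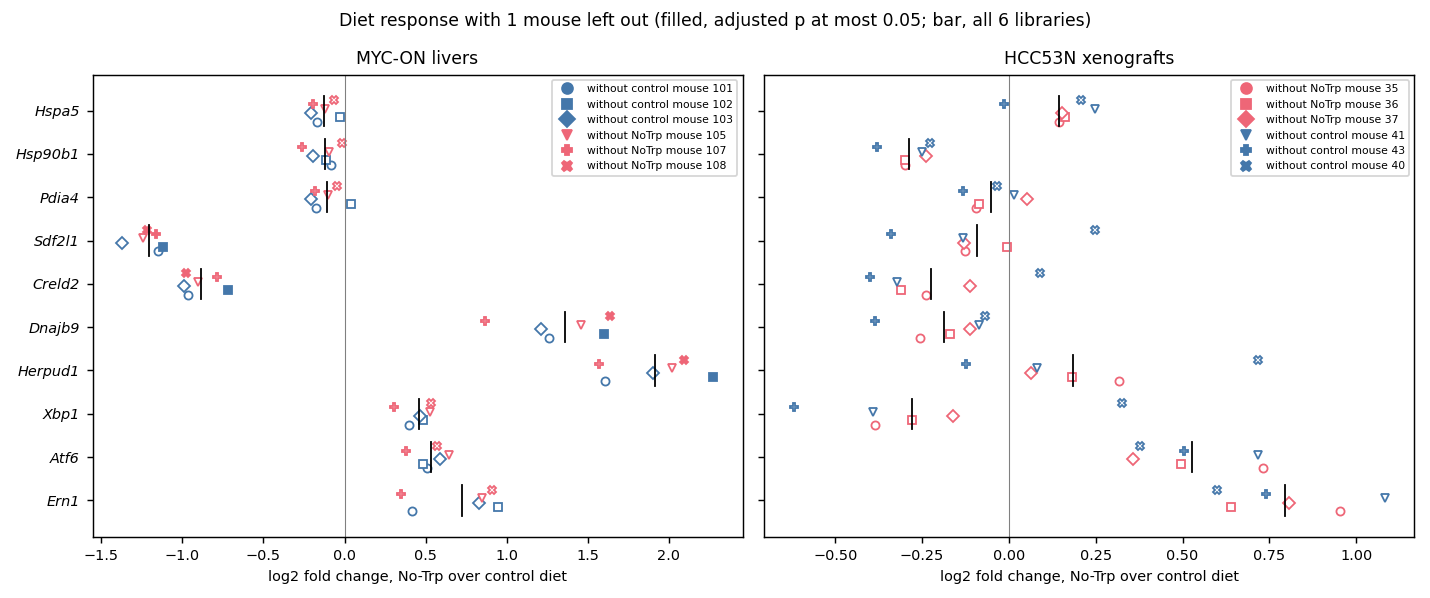
Log2 fold change of the 10 genes (rows), No-Trp over control, with 1 mouse left out at a time, livers on the left and xenografts on the right. Each symbol is the fit without the mouse in the legend, filled where the adjusted p was at most 0.05, and the bar is the fit on all 6 libraries. In the livers Herpud1 stays between 1.57 and 2.27 and Sdf2l1 between -1.37 and -1.12, and in the xenografts no symbol is filled.

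Several measures of cell content moved with diet in the same livers, where 13.3% of all genes were called higher and 12% lower. The summed level of 12 hepatocyte markers was 9268 to 39900 CPM in control livers and 53440 to 131797 CPM in No-Trp livers, and 4 of the 11 tested rose and none fell. Within each diet, the liver with the highest hepatocyte sum was also the one with the highest Herpud1, Dnajb9, Ern1, Xbp1, Hspa5 and Pdia4 (control liver 102 and No-Trp liver 107). Liver 107 also had the lowest Sdf2l1 and Creld2 of the No-Trp livers, whereas liver 102 had the highest Sdf2l1 and Creld2 and the lowest Atf6 of the controls. Endothelial markers were at 135 to 266 CPM in control livers and 287 to 467 CPM in No-Trp livers, with 3 of 9 tested higher and none lower. Erythroid markers were at 59.4 to 580 CPM in control livers and 19.6 to 28.9 CPM in No-Trp livers, with 4 of 6 tested lower, and neutrophil markers were at 189 to 235 CPM and 8.43 to 114 CPM, with 1 of 7 lower. Plasma cells and pancreatic acinar cells are rich in ER. The plasma and B cell sum was 111 to 157 CPM in control livers and 193 to 352 CPM in No-Trp livers, nearly all of it from Sdc1, which hepatocytes and epithelial cells also express and which alone of 8 tested passed (log2 fold change 1.15, adjusted p = 0.0309), while Mzb1 was at most 2.46 CPM and Cd79a at most 1.64 CPM in any liver. The acinar sum was at most 16.2 CPM in the livers, with Amy2a5 at 0 in all 12 libraries. Of the non-polyadenylated RNAs, which polyA selection should remove, 3 were tested, and in both models all 3 were lower at an unadjusted p under 0.05 and none was called. Their sum was 5432 to 134267 CPM in control livers and 3501 to 6956 CPM in No-Trp livers. The part of these differences in the results of the 10 genes was not tested.

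In the xenografts none of the 10 genes passed the threshold, where 0.245% of 14704 genes were called higher and 0.129% lower. None passed under DESeq2 either, and 1 of the 10 had an unadjusted p under 0.05 in edgeR (7.82% of all genes were higher and 9.07% lower by that measure). That gene was Ern1, at 34.3, 23.2 and 18.1 CPM in control xenografts 41, 43 and 40 and 35.0, 53.4 and 44.0 CPM in No-Trp xenografts 35, 36 and 37 (log2 fold change 0.79, SE 0.26, adjusted p = 0.189). The diets were apart by a narrow margin between control 41 and No-Trp 35. Hsp90b1 was apart in the other direction, at 1293, 1062 and 1334 CPM against 1057, 1036 and 956 CPM (log2 fold change -0.29, SE 0.15, adjusted p = 0.369). Over all genes 10.8% were apart with No-Trp higher and 11.8% with No-Trp lower. Adipocyte markers summed to 11.4 to 66.9 CPM in control xenografts and 351 to 739 CPM in No-Trp xenografts, and their part in these values was not tested.

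The genes that moved in the livers had values of both signs in the xenografts, with wide intervals. Herpud1 had 80.3, 48.7 and 152 CPM in control xenografts 41, 43 and 40 and 88.6, 108 and 125 CPM in No-Trp xenografts 35, 36 and 37, a log2 fold change of 0.18 (95% interval -0.72 to 1.09). Sdf2l1 had 29.9, 19.6 and 44.9 CPM against 31.7, 26.2 and 31.4 CPM, a log2 fold change of -0.09 (95% interval -0.72 to 0.54). Control xenograft 40 was high and control xenograft 43 low for both. Dnajb9 had 55.5, 34.2 and 56.8 CPM against 48.4, 42.5 and 39.1 CPM (95% interval -0.66 to 0.28), and Creld2 had 86.8, 74.2 and 140 CPM against 90.0, 96.7 and 73.0 CPM (95% interval -0.77 to 0.32). Control xenograft 40 also had the highest Xbp1 of all 12 libraries, at 377 CPM against 187 and 104 CPM in controls 41 and 43 and 215, 186 and 155 CPM in the No-Trp group. Atf6 overlapped between diets, at 101, 78.5 and 63.9 CPM against 85.0, 124 and 145 CPM (log2 fold change 0.53, adjusted p = 0.314), and Pdia4 did too, at 189, 153 and 178 CPM against 183, 178 and 146 CPM (log2 fold change -0.05). Xenograft 43, the shallowest library, was below the control mean for all 10 genes. Hspa5 showed this most plainly, with 718 CPM in 43 against 1070 and 1021 CPM in controls 41 and 40 and 1023 to 1067 CPM in the No-Trp tumors. The log2 fold change of Herpud1 was 0.72 without control 40 and -0.12 without control 43, so its sign rested on which of them was kept.

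**Figure D4:**
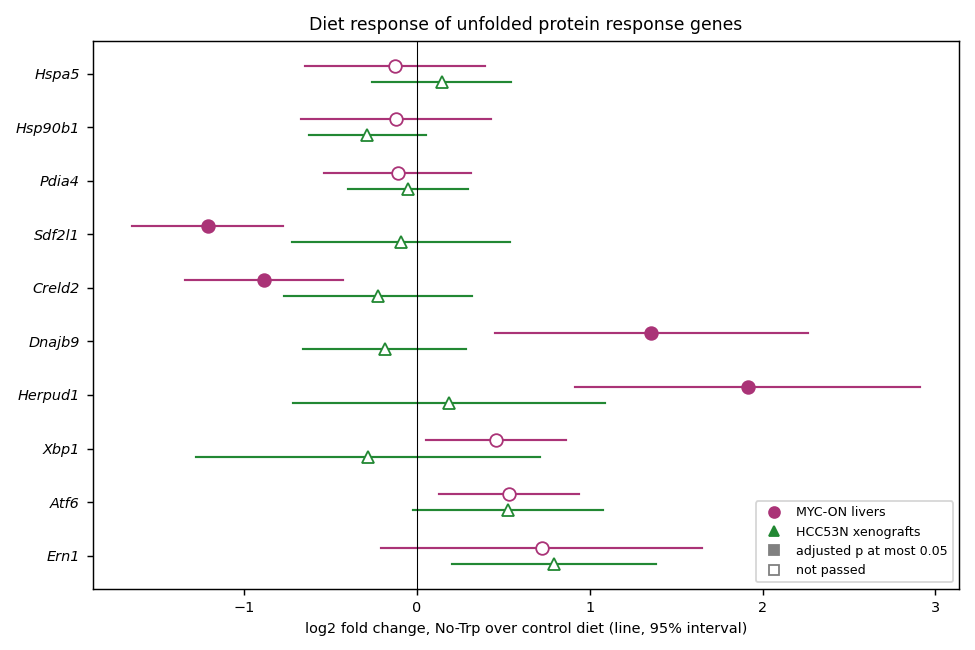
Log2 fold change, No-Trp over control (x axis), of the 10 genes (rows) in livers (purple circles) and xenografts (green triangles), with lines for the 95% interval and filled symbols for an adjusted p of at most 0.05. The 4 filled symbols are the liver values of Herpud1 (1.91), Dnajb9 (1.36), Sdf2l1 (-1.21) and Creld2 (-0.89).

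Whether the diet response itself differed between the models was tested in 1 fit over all 12 libraries. Dnajb9 alone of the 10 passed: its response was lower in the xenografts by a log2 difference of -1.51 (SE 0.47, adjusted p = 0.0486), where 8.25% of 15472 genes had a response called higher in the xenografts and 7.39% lower. Sdf2l1, at 1.14 (SE 0.36, adjusted p = 0.0519), and Herpud1, at -1.70 (SE 0.61, adjusted p = 0.0791), did not pass. With 1 library left out at a time, each passed in 1 of 12 fits. For Creld2 the difference was 0.69 (95% interval -0.05 to 1.42). Atf6 had nearly the same fold change in both models, 0.53 in each, with a difference of 0.02 and a 95% interval of -0.65 to 0.69. The Dnajb9 call was lost without any 1 of livers 101, 103, 105 and 107 or xenografts 35, 36, 37, 40 and 41, and its difference ranged from -1.79 to -1.02 over all 12 omissions.

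Between the models, control mice differed in 1 of the 10 genes and No-Trp mice in 3. This comparison cannot be told apart from tissue, sex, strain, host, site and drivers, which all change with the model. On the control diet Sdf2l1 was lower in the xenografts (log2 difference -0.81, SE 0.26, adjusted p = 0.0170), with overlapping groups, and the other 9 did not pass, where 30.8% of all genes were called higher and 28.7% lower (20.2% lower with a log2 difference of at least 1 required, which Sdf2l1 missed). Sdf2l1 had an adjusted p above the threshold without xenograft 41 or 43. On the No-Trp diet Herpud1 (log2 difference -2.69, SE 0.46, adjusted p = 0.00035) and Dnajb9 (-1.24, SE 0.33, adjusted p = 0.00697) were lower and Creld2 was higher (0.98, SE 0.24, adjusted p = 0.00397) in the xenografts, each with groups apart. Over all genes 33.2% were called higher and 26.4% lower, 37.4% had groups apart with the xenografts higher and 29.5% lower, and 24.5% were higher by a log2 difference of at least 1, a size that Creld2 missed. In both diets fewer of the 10 were called than the 59.5% and 59.6% of all genes in either direction. Hspa5 differed between the models by -0.28 on the control diet (95% interval -0.68 to 0.12) and by 0.02 on the No-Trp diet (95% interval -0.39 to 0.42).

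The wider ER machinery was read from 7 lists of genes with 127 tested members outside the 10. These lists were chosen with earlier results of these data known, so the shares below are a description and not a test of the lists. In the livers 28 of them (22%) rose and 5 (3.94%) fell, against 13.3% and 12% of all genes, with a median log2 fold change of 0.29. In the xenografts none rose and 1 fell, and 22 of the 127 had an unadjusted p under 0.05, near the share of all genes (7.82% higher and 9.07% lower). These were spread unevenly: the list of the PERK, ATF4 and CHOP arm held 4 higher and 3 lower of its 15 tested genes. The liver counts turned on single mice: 3 rose without control liver 101, 0 without control liver 103, 5 without No-Trp liver 105 and 17 without No-Trp liver 107, against 29 without 102 and 26 without 108. Scaling by library totals gave 13 higher and 7 lower.

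The genes of ER-associated degradation, which extract misfolded proteins and hand them to the proteasome, held the most risers in the livers together with ER to Golgi transport. Over all genes there, 13.3% were called higher and 12% lower. Of the 18 degradation genes tested, 8 rose and none fell (1 was lower at an unadjusted p under 0.05, and 1 by DESeq2), with a median of 0.73. Groups were apart with No-Trp higher for 13 of them, as for 23.6% of all genes. Sel1l, the scaffold of the HRD1 ligase, went from 92.9 to 151 CPM in control livers to 212 to 374 CPM in No-Trp livers (log2 fold change 1.27, SE 0.27, adjusted p = 0.0242). Edem1, a mannosidase-like factor that marks glycoproteins for disposal, was at 72.7 to 106 CPM and 140 to 304 CPM (log2 fold change 1.27, SE 0.31, adjusted p = 0.0294). Among 25 genes of ER to Golgi transport 8 rose and none fell (0 at an unadjusted p under 0.05, and 0 by DESeq2), led by the COPII coat subunit Sec23a (1.33, SE 0.18, adjusted p = 0.0142) and the cargo receptor subunit Mcfd2 (1.13, SE 0.25, adjusted p = 0.0254). Sel1l, Edem1 and Mcfd2 each lost the call without 101, 103 or 105, and Sec23a without 103. Of 29 translocon, signal peptidase and N-glycosylation genes tested, none rose (2 were higher at an unadjusted p under 0.05, and 1 by DESeq2) and 2 fell, the glucosidase Mogs (-0.68, SE 0.15, adjusted p = 0.0249) and the signal recognition particle subunit Srp68 (-0.62, SE 0.19, adjusted p = 0.0496). Mogs kept the call in 3 of the 6 omissions of a liver and Srp68 in 1.

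The other chaperones and oxidoreductases had members of both directions in the livers, where 13.3% of all genes were called higher and 12% lower. Of 17 other chaperones and co-chaperones 4 rose, among them the BiP exchange factor Sil1 (1.02, adjusted p = 0.0400) and the prolyl isomerase Fkbp14 (0.87, adjusted p = 0.0366), and 1 fell, the secreted stress protein Manf (-0.57, adjusted p = 0.0459). Manf and Fkbp14 had an adjusted p above the threshold with any 1 liver left out, as did Pdia5 and Atf6b below. Of 15 disulfide and redox enzymes the isomerase P4hb rose, from 952 to 1096 CPM in control livers to 1938 to 3273 CPM in No-Trp livers (1.22, SE 0.30, adjusted p = 0.0305), and Pdia5 fell (-0.55, adjusted p = 0.0424). Among 8 other sensors and processing proteases, the liver-enriched transcription factor Creb3l3 (1.05, adjusted p = 0.0375) and its relative Creb3 (0.74, adjusted p = 0.0294) rose, and Atf6b fell (-0.54, adjusted p = 0.0470). Creb3l3 and Creb3 kept the call in 1 of the 6 omissions, the one without control liver 102, Sil1 in 2 of 6 and P4hb in 3 of 6. The BiP partners Hyou1 (-0.45, adjusted p = 0.143) and Dnajc3 (0.55, adjusted p = 0.120) did not pass. Alg12, of the N-glycosylation list, did not pass either (0.39, adjusted p = 0.157).

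The genes of the PERK branch that are closest to PERK itself did not pass in either model. In the livers Eif2ak3 was at 0.31 (adjusted p = 0.388), Atf4 at -0.45 (adjusted p = 0.213) and Ddit3 (CHOP) at 0.44 (adjusted p = 0.185), and in the xenografts they were at 0.05, -0.40 and -0.79 (adjusted p = 0.920, 0.498 and 0.331). Of the 15 genes listed for this arm, 5 rose in the livers and none fell (1 was lower at an unadjusted p under 0.05, and 0 by DESeq2), with a median of 0.44. Over all genes 13.3% were called higher and 12% lower. Fold changes were positive for 9 of the 15 and negative for 6. The lowest was that of Asns (-1.08), which did not pass and is described below. The lipoprotein receptor Vldlr had 6.51, 3.44 and 7.63 CPM in control livers and 49.8, 81.7 and 56.1 CPM in No-Trp livers (log2 fold change 3.42, SE 0.36, adjusted p = 0.0108). The pseudokinase Trib3, which ATF4 and CHOP induce, had 14.0, 8.06 and 10.6 CPM against 26.8, 29.8 and 127 CPM (2.5, SE 0.65, adjusted p = 0.0357), with liver 108 far above the rest. Its call was kept without 108 alone of the 6 livers. The transcription factor Cebpb was the single called ER-list gene in the xenografts, at 76.6, 71.1 and 69.9 CPM in controls 41, 43 and 40 and 29.0, 36.2 and 27.2 CPM in No-Trp tumors 35, 36 and 37 (-1.25, SE 0.16, adjusted p = 0.0235). This call was lost without 35, 37, 41 or 43 and with the resubmission mark as a covariate (adjusted p = 0.157). In the livers Cebpb rose by 1.9 on the log2 scale (SE 0.27, adjusted p = 0.0142), and the 2 responses differed (log2 difference -3.12, adjusted p = 0.00165). Between the models, Ddit3 was higher in the xenografts with control (log2 difference 2.91) and with No-Trp diet (1.70), as was Atf4 (1.09 and 1.17), and Dnajc3 was lower (-1.79 and -1.97), all called.

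Folding genes outside the ER served as a comparison in the livers. Over all genes tested there, 13.3% were called higher and 12% lower. Of 16 cytosolic heat shock genes 3 rose and 5 fell. Hspb8 (2.90) and Hspa1b (1.61) had the largest rises and Hsp90aa1 (-1.56) and Stip1 (-1.11) the largest falls. Of 12 mitochondrial chaperones and proteases 4 rose and none fell (0 at an unadjusted p under 0.05), led by Lonp1 (1.76) and Hspa9 (0.96). No gene of these lists was called in the xenografts (1 cytosolic and 2 mitochondrial genes were lower at an unadjusted p under 0.05), with medians of -0.28 for the cytosolic and 0.05 for the mitochondrial list.

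**Figure D5:**
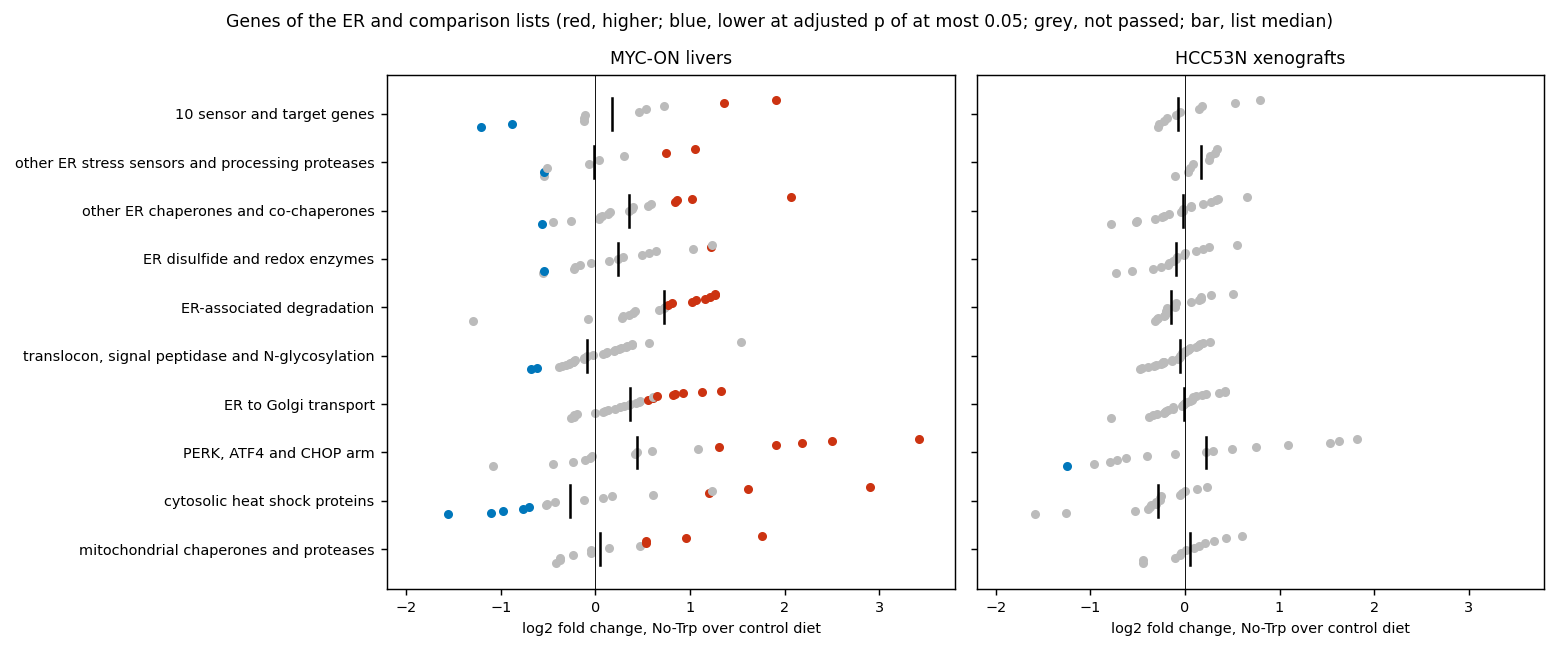
Log2 fold change, No-Trp over control (x axis), of each tested gene (points) in the 10 genes and 9 lists (rows), livers on the left and xenografts on the right, with red for higher and blue for lower at an adjusted p of at most 0.05, grey for the rest and a bar for the list median. In the livers the degradation list has its median at 0.73 with 8 red points, the translocon list has 2 blue points and no red point, and in the xenografts Cebpb is the single colored point.

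Genes with a stress element had fold changes of both signs in the livers. The ERSE was present in the promoter windows of 37 genes, 11 of them in the ER lists or among the 10. In the livers 20 were tested, of which 1 rose and 2 fell, with a median of -0.04. Over all genes 13.3% were called higher and 12% lower. Among the ER genes with the element, Calr was at 0.07, Canx at -0.26, Pdia6 at -0.05 and Syvn1 at -0.08, none of which passed, Derl3 was at -1.29 (adjusted p = 0.0583) and the oxidase Ero1b (Ero1lb in the count tables) at 1.23 (adjusted p = 0.115). Creld2, shown above with its reverse-strand match, was the ER gene that fell. The ERSE-II was in 12 genes, of which 9 were tested and Herpud1 alone was called. Dnajb11, another ER co-chaperone with an ERSE-II, was at 0.05 (adjusted p = 0.827).

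Around the group means, the genes that varied most like Hspa5 over the 12 libraries were Pax9, Lyst, 1190002N15Rik, Pla2g12b and Tapbp, with Pearson coefficients of 0.96, 0.94, 0.94, 0.94 and 0.92 on log2 CPM, of 11668 genes ranked. None of these 5 is in the ER lists. Of the 10 genes, Dnajb9 (0.80), Pdia4 (0.79) and Hsp90b1 (0.75) were most like it and Atf6 was least (0.05). Depth and tissue content differed between libraries of the same group. Counts on genes ranged from 14865881 to 23751118 in No-Trp livers, and the hepatocyte marker sum from 9268 to 39900 CPM in control livers. The part of such differences in these coefficients was not tested. With the group means taken out, fewer than 12 values were free to vary, and the coefficients are a description only.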

How the data were processed

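PolyA RNA was sequenced from 1 library per mouse, and the authors used Trim Galore for trimming, STAR 2.7.2b for alignment to mm10 and HTSeq for counting per gene, whose strand and overlap settings are not given in the sources used here. SAMtools 1.9 served for sorting, and Bowtie2 2.3.4.3 and BWA 0.7.17 for separate alignments to transcript, ribosomal RNA or human MYC sequences that did not make the counts used here. The build GRCm38.p6 was used by the authors in the human MYC step. The deposited values are unnormalized counts per gene, with rows of uncounted reads (24.7% to 39.4% of a library) that entered neither library sizes nor tests.

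Groups were taken from the sample labels, and the mice of a group were treated as replicates. Counts were tested in R 4.3.3 with edgeR 4.0.16 (TMM scaling, filterByExpr, robust quasi-likelihood fit). Benjamini-Hochberg adjustment was over all genes of a fit, with a call at an adjusted p of at most 0.05. The procedure was first run on simulated counts, where the only requirement was the right direction for most planted changes. All tests were two-sided. Diets were compared in the 6 libraries of a model, and the interaction and the model comparisons were fitted on all 12. Tested genes numbered 14122 in the livers, 14704 in the xenografts and 15472 over all libraries. CPM used TMM library sizes over all 12 libraries, and levels per kilobase used the exon union of the GRCm38 annotation. Depth was 14660963 to 26085349 counts on genes, and no pair of libraries in a group agreed within sampling noise. Alternatives were DESeq2 1.42.0, other scalings and filters, the resubmission mark as a covariate or a reason to leave libraries out (the latter chosen after seeing the data), Rn45s left out, other libraries in the fit, a log2 fold change of at least 1 as a further condition, and each library left out in turn.

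The 10 genes and all lists were chosen with earlier results of these data known. Named beside the 10 genes were Eif2ak3, Atf4, Ddit3, Hyou1, Manf, Dnajc3 and Alg12, the 2 largest rises and 2 largest falls among called genes of a list, given a mean of 100 or more counts in the group where the gene was higher (some were left out of the text), and the 5 genes most like Hspa5. Calr, Canx, Pdia6, Syvn1, Derl3, Ero1b, Dnajb11, Sdc1, Asns and the single marker genes were named outside this rule, after their values were seen, as were the further genes whose response differed between the models. Promoter sequences and starts were those of RefSeq on GRCm38.p6, with older gene symbols matched through its synonyms.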

Additional observations from a re-analysis of the deposited data

Results flagged for a closer look

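Beside Dnajb9 (interaction log2 difference -1.51, adjusted p = 0.0486, response lower in the xenografts), 14 other genes of the 7 ER lists, of those that the text or the rule for named genes takes up, had a diet response that differed between livers and xenografts in edgeR's quasi-likelihood test of the interaction. Of 127 genes in these lists, 2 (1.57%) had a response called higher and 21 (16.5%) lower in the xenografts, against 8.25% and 7.39% of all genes.

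The widest difference upward was that of Asns, asparagine synthetase, a target of ATF4. It had 315, 193 and 270 CPM in control livers and 131, 49.3 and 184 CPM in No-Trp livers, against 65.0, 47.1 and 56.7 CPM in control xenografts 41, 43 and 40 and 81.2, 302 and 215 CPM in No-Trp xenografts. The groups were apart in both models, in opposite directions, although neither diet comparison passed alone (log2 fold change -1.08 with adjusted p = 0.116 in livers, and 1.82 with adjusted p = 0.132 in xenografts). The interaction log2 difference was 2.92 (adjusted p = 0.0205). The other gene with a higher response in the xenografts was Atf6b, at 0.88 (adjusted p = 0.0257).

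The responses of Vldlr (-3.17, adjusted p = 0.00327) and Cebpb (-3.12, adjusted p = 0.00165) were lower in the xenografts by the widest margins. Among folding factors and enzymes, the differences were -1.73 for Creld1 (adjusted p = 0.0247), -1.27 for P4hb (adjusted p = 0.0228), -1.22 for Sil1 (adjusted p = 0.0393) and -1.06 for Sec63 (adjusted p = 0.0148). The lectins of ER-associated degradation Erlec1 and Os9 were at -1.38 (adjusted p = 0.00936) and -1.24 (adjusted p = 0.0424). The COPII genes Sec23a and Sar1b were at -1.30 (adjusted p = 0.0103) and -1.03 (adjusted p = 0.0358). The oligosaccharyltransferase subunit Dad1 was at -0.75 (adjusted p = 0.0309) and the transcription factor Creb3 at -0.82 (adjusted p = 0.0478). With each of the 12 libraries left out in turn, the interaction passed in all 12 fits for Vldlr, Cebpb, Erlec1, Sec23a and Sec63, in 11 for Asns, 9 for P4hb, 8 for Atf6b and 6 for Creld1. It passed in 4 of 12 for Sil1 and Dad1 and in 3 of 12 for Dnajb9, Os9, Sar1b and Creb3. No cause was tested for any of these differences.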

How the results depend on the processing

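With 3 mice a group, which mice enter decided the liver calls: leaving out 1 library at a time gave 0 to 2 of the 10 genes higher and 0 to 2 lower (2 and 2 with all), and among all genes 7 to 2340 higher and 1 to 1828 lower. No paired analysis was possible because the groups share no animal numbers. In the livers 1 gene was higher by library totals, 1 with no filter, and 0 with the unmarked libraries only, and 1 was lower with a log2 fold change of at least 1 required and 0 with the unmarked libraries only. The xenograft counts were 0 and 0 under each setting, with 0 to 0 for single omissions. For the interaction (0 higher, 1 lower), 1 was higher with DESeq2, library totals or at least 10 counts per library, and lower were 2 with DESeq2, 2 with the covariate, and 0 with library totals, no filter or unmarked libraries (omissions 0 to 2 in both directions). For the models on the control diet (0 and 1), 1 was higher by totals, the covariate or unmarked libraries, and lower were 2 with DESeq2 and 0 by totals or a fold of at least 1 (omissions 0 to 1 and 0 to 3). On the No-Trp diet (1 and 2), totals gave 4 higher and 1 lower and the fold condition 0 higher (omissions 1 to 1 and 2 to 2). The causes of these shifts were not tested. Calls over all liver genes (1874 higher, 1696 lower) were 2435 and 2359 by DESeq2, 1311 and 1026 with the fold condition, and 888 and 1983 by totals. In the xenografts (36 and 19) they were 341 and 297 by DESeq2, 58 and 31 by RLE, 66 and 11 by totals, 80 and 68 with no filter, 10 and 5 with at least 10 counts, 3 and 1 with the covariate, 59 and 36 without Rn45s, 18 and 5 in the fit of all 12, and 0 and 0 in unmarked libraries, with 7 to 35 and 2 to 46 over omissions. Totals shifted the median of all log2 fold changes to -0.30 in livers and 0.11 in xenografts.

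The following signs turned. By library totals, the log2 values were -0.033 for Eif2ak3 in livers, 0.064 for Pdia4 and 0.022 for Sdf2l1 in xenografts, 0.26 for Hsp90b1, 0.20 for Eif2ak3, 0.24 for Dnajc3 and 0.042 for Alg12 in the interaction, 0.080 for Hsp90b1 and 0.050 for Manf between models on the control diet, and 0.34 for Hsp90b1, 0.39 for Pdia4, 0.55 for Xbp1, 0.0083 for Ern1, 0.025 for Eif2ak3 and 0.49 for Alg12 on the No-Trp diet. With DESeq2 and with RLE factors, the interaction was -0.0066 and -0.0066 for Pdia4, -0.074 and -0.074 for Atf6, -0.0035 and -0.0050 for Ern1 and -0.016 and -0.017 for Atf4, and the No-Trp model difference -0.098 and -0.0995 for Hspa5 and -0.066 and -0.067 for Atf6. With the covariate, Herpud1 was at -0.51 and Alg12 at -0.10 in xenografts, Pdia4 at -0.0064 and Ern1 at -0.26 in the interaction, Atf6 at -0.011 between models on the control diet and Hspa5 at -0.034 on No-Trp. In unmarked libraries, Hsp90b1 was at 0.00083 in livers, Herpud1 at -0.52 and Alg12 at -0.11 in xenografts, Atf4 at -0.30 and Manf at -0.17 in the interaction, Hsp90b1 at 0.074, Atf6 at -0.34 and Manf at 0.37 between models on the control diet, and Hspa5 at -0.038 on No-Trp. Without Rn45s, Atf6 was at -0.0018 in the interaction and Hspa5 at -0.031 between models on No-Trp. With the 6 No-Trp libraries alone, Hspa5 was at -0.061 and Atf6 at -0.028, and Xbp1 was at 0.0049 with no filter and 0.022 with at least 10 counts.

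With 1 library left out, signs turned for Pdia4 in livers (-0.21 to 0.037), and in xenografts for Hspa5 (-0.014 to 0.25), Pdia4 (-0.13 to 0.052), Xbp1 (-0.62 to 0.33), Herpud1 (-0.12 to 0.72), Sdf2l1 (-0.34 to 0.25), Creld2 (-0.40 to 0.088), Eif2ak3 (-0.090 to 0.20) and Alg12 (-0.029 to 0.11). In the interaction they turned for Hsp90b1 (-0.24 to 0.0051), Pdia4 (-0.064 to 0.19), Atf6 (-0.16 to 0.21), Ern1 (-0.13 to 0.48), Atf4 (-0.31 to 0.31) and Dnajc3 (-0.34 to 0.092). Between models on the control diet they turned for Hsp90b1 (-0.15 to 0.013), Atf6 (-0.16 to 0.18), Creld2 (-0.032 to 0.47) and Manf (-0.34 to 0.027), and on No-Trp for Hspa5 (-0.041 to 0.050), Xbp1 (-0.13 to 0.10), Atf6 (-0.12 to 0.24), Manf (-0.023 to 0.27) and Alg12 (-0.11 to 0.0022). The liver signs of Herpud1, Dnajb9, Sdf2l1 and Creld2 did not turn in any run.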
